A study of Mus musculus with 2 samples.

Results

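Kupffer cell identity genes were followed in 2 scRNA-Seq libraries of shYT livers bearing CCA, 1 from animals given PBS and 1 from animals given anti–PD-1. The 10 genes are *Clec4f*, *Vsig4*, *Timd4*, *Cd5l*, *Marco*, *Fcna*, *C6*, *Folr2*, *Cd163* and *Spic*, found by symbol among the 32589 genes that both libraries list. CCA was started by HDTVI, hydrodynamic tail vein injection, which carries plasmids for activated Notch (NICD) and myristoylated AKT into hepatocytes. In both groups a doxycycline-inducible shRNA against *Yap1* and *Wwtr1* (TAZ) was switched on from day 25 under a ubiquitous CAG-rtTA3 driver, so macrophages carried it too. One group received the PD-1 antibody clone RMP1-14 on days 26, 29 and 32, the other received PBS, and livers were analyzed on day 33. Without a library from animals with active YAP/TAZ, only ICB on top of YAP/TAZ depletion could be compared. The labels give neither the age, the sex, the shRNA line nor the number of animals. The study states several animals per group and the use of both sexes, but the cells of a library are not assigned to animals. Each group being a single library, the variation among animals is unknown, and the values hold for this pair of libraries alone.

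Kupffer cells are the resident macrophages of the liver and sit inside the sinusoids, where they take up particles, complement-coated microbes, dying cells and old erythrocytes from portal blood. In mice their identity program depends on signals from the sinusoid, among them Notch ligands, BMP and TGF-β ligands and desmosterol sensed by LXRα, the product of *Nr1h3*. When Kupffer cells are lost, monocytes can fill the niche, and of the identity genes *Timd4* is the one known to be acquired late by such newcomers. The question addressed here was whether the program stood at the same level, and in as many macrophages, with and without anti–PD-1.

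The members fall into receptors, secreted proteins and a transcription factor, and all coordinates are mm10. *Clec4f* (ENSMUSG00000014542, chromosome 6, 83644542 to 83656187, reverse strand) encodes a C-type lectin that in mice is largely restricted to Kupffer cells. *Vsig4* (ENSMUSG00000044206, chromosome X, 96247203 to 96293438, reverse strand) encodes CRIg, a receptor for complement C3 fragments. *Timd4* (ENSMUSG00000055546, chromosome 11, 46810800 to 46844332, forward strand) encodes a phosphatidylserine receptor for apoptotic cells. *Marco* (ENSMUSG00000026390, chromosome 1, 120474538 to 120505024, reverse strand) and *Cd163* (ENSMUSG00000008845, chromosome 6, 124304656 to 124330527, forward strand) encode scavenger receptors, the latter for hemoglobin bound to haptoglobin. *Folr2* (ENSMUSG00000032725, chromosome 7, 101839988 to 101857194, reverse strand) encodes folate receptor β. *Cd5l* (ENSMUSG00000015854, chromosome 3, 87357881 to 87371073, forward strand) encodes the secreted protein AIM. *Fcna* (ENSMUSG00000026938, chromosome 2, 25624666 to 25628030, reverse strand) encodes ficolin A of the lectin complement pathway, and *C6* (ENSMUSG00000022181, chromosome 15, 4727175 to 4814967, forward strand) encodes a component of the membrane attack complex. *Spic* (ENSMUSG00000004359, chromosome 10, 88674772 to 88685015, reverse strand) encodes an ETS transcription factor induced by heme in iron-recycling macrophages.

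Promoters are shown for *Vsig4* and *Timd4*, which had the lowest and the highest ratio between the libraries among the members in Clec4f-high cells, and for *Cd5l*, against which the other members are set below. RefSeq (GRCm38.p6) gave 11 promoters of 300 bases for all 10 members, *Folr2* having more than 1 start. Capitals mark GAGGAA, the core bound by PU.1 and related ETS factors, and TGCTGA, a half-site of bZIP factors, each on either strand.
Vsig4, chrX:96293389-96293688, reverse strand: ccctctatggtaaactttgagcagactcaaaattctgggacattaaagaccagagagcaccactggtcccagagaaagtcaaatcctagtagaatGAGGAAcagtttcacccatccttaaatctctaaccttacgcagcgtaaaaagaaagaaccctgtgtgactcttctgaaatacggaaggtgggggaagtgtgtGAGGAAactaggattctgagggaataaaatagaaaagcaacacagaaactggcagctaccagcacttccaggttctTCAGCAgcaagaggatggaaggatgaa
Timd4, chr11:46810549-46810848, forward strand: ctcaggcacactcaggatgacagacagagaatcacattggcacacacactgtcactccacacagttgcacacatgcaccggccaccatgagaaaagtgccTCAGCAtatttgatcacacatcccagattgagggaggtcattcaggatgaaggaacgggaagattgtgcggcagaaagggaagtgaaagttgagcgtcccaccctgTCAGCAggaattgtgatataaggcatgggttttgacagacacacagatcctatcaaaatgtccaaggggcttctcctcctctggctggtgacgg
Cd5l, chr3:87357631-87357930, forward strand: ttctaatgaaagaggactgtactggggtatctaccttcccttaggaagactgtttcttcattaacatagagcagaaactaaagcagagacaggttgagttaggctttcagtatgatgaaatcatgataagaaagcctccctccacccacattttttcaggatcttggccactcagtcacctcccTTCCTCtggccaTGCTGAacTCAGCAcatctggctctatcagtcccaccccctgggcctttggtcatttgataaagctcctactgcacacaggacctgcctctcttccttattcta
The marked matches do not overlap each other in these promoters. GAGGAA was found in promoters of 4 of the 10 members (*Vsig4*, *Cd5l*, *Marco* and *Fcna*) and in 28.3% of all 32851 RefSeq promoters of this length. TGCTGA was found for 7 of 10 members and in 19.5% of all promoters. AGGTCA, a half-site of nuclear receptors, was found for 3 of 10 members (*Clec4f*, *Timd4* and *C6*) and in 16.3% of all promoters. A match describes letters and is no evidence of binding, and *Timd4* had no GAGGAA in this window.

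After filters on detected genes and mitochondrial UMIs, 15531 PBS cells and 16360 anti–PD-1 cells were kept. Macrophages were gated by at least 5 UMIs of *C1qa*, *C1qb* and *C1qc*, which uses no member, and numbered 3762 and 3024. The libraries shared 219 barcodes, of which 145 were kept in both, and none fell into the Clec4f-high gate described below in both. The libraries also differed by sex-linked transcripts. Of the Clec4f-high cells, 97 PBS cells had a Y-linked UMI without *Xist* and 292 had *Xist* without a Y-linked UMI, against 646 and 0 with anti–PD-1. The PBS library thus held cells of both sexes and the anti–PD-1 library almost only male cells. Values within Y-linked cells are therefore given beside each member for Clec4f-high cells.

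*Clec4f* UMIs ranged from none in many macrophages to 100 or more in some. Of the PBS macrophages, 2636 (70.1%) had no *Clec4f* UMI, 541 (14.4%) had 1 to 4, and 581 (15.4%, 14.3 to 16.6) had at least 5 together with at least 10 C1q UMIs. In the anti–PD-1 library 1071 (35.4%) had none, 950 (31.4%) had 1 to 4 and 991 (32.8%, 31.1 to 34.5) passed the high gate. Intervals here and below are exact, at 95%, and cover counting error only. T cells, which should not express *Clec4f*, had no UMI of it in 91.6% of PBS cells and 72.1% of anti–PD-1 cells, and 1 T cell in each library had 5 or more. Cells with 1 to 4 UMIs can therefore hold *Clec4f* from other cells, and this background was higher in the anti–PD-1 library. Hence 2 gates are reported, Clec4f+ macrophages with at least 1 UMI (1126 and 1953 cells) and Clec4f-high macrophages, the latter chosen after the data had been seen.

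**Figure D1:**
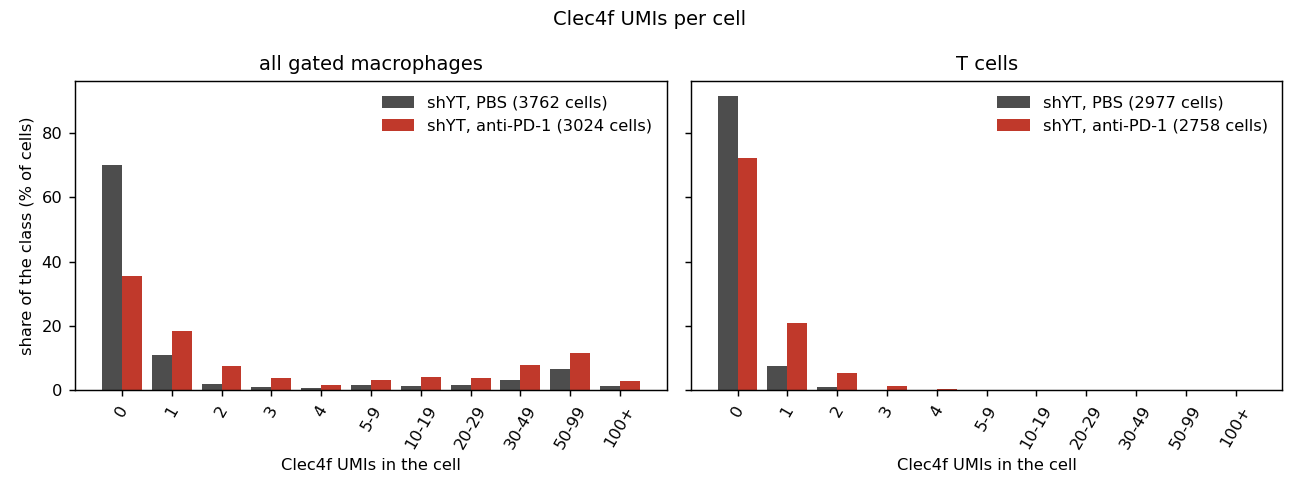
Share of gated macrophages (left) and of T cells (right) by the number of *Clec4f* UMIs in the cell, with PBS in grey and anti–PD-1 in red (y axis, percent of the class). Bins widen to the right, 244 PBS and 351 anti–PD-1 macrophages had 50 to 99 UMIs where no T cell had over 9, and the anti–PD-1 library has fewer cells at 0 in both classes.

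By each *Clec4f* gate, a larger share of macrophages carried *Clec4f* in the anti–PD-1 library. The share of Clec4f+ cells was 29.9% (28.5 to 31.4) of PBS macrophages and 64.6% (62.8 to 66.3) of anti–PD-1 macrophages, and after thinning to 1000 UMIs, which left out 93 and 263 shallower macrophages, it was 18.3% (17.1 to 19.6) and 44.4% (42.5 to 46.2). A gate on 5 other Kupffer genes that uses no member gave 14.1% (13.02 to 15.3) and 29.1% (27.5 to 30.8). It was chosen after the data had been seen. Among all kept cells, Clec4f-high macrophages made up 3.74% and 6.06%. Cells with markers of another lineage were left out, and when they were counted these shares were 5.52% (5.17 to 5.90) and 8.73% (8.31 to 9.18). The difference had the same direction under each of the gates above. A broader gate on Kupffer genes, which also uses no member, is described below. It held 2533 of 3762 PBS macrophages and 2234 of 3024 anti–PD-1 macrophages, a larger share in the anti–PD-1 library. Among all kept cells its share went the other way, at 16.3% (15.7 to 16.9) in the PBS and 13.7% (13.1 to 14.2) in the anti–PD-1 library. Shares are relative, and more Kupffer cells and fewer other macrophages cannot be told apart, since Clec4f- macrophages were 17.0% of kept PBS cells and 6.55% of kept anti–PD-1 cells. The latter shares depend on the background too. A single *Clec4f* UMI from other cells takes a macrophage out of the Clec4f- class, and this background was higher in the anti–PD-1 library.

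All 10 genes stood far higher in Clec4f-high cells than in other macrophages, and in no other class did they approach these levels. Ranked by the log2 ratio of Clec4f-high over Clec4f- macrophages, the first 7 of all genes in the PBS library were members (*Clec4f*, *Cd5l*, *Marco*, *C6*, *Vsig4*, *Fcna* and *Timd4*), *Cd163* ranked 11, *Folr2* 16 and *Spic* 52. In the anti–PD-1 library *Clec4f*, *C6*, *Cd5l*, *Vsig4* and *Fcna* took ranks 1 to 5, *Timd4* ranked 10, *Marco* 19 and *Spic* 42. *Clec4f* leads because it defines the gate. The other members were not used for it, and *Cdh5*, *Clec1b* and the iron exporter *Slc40a1*, also known from Kupffer cells, stood among the leading genes. These cells were therefore labeled Kupffer cells. The gate and the members were chosen with results of these data known, so the ranking is no independent support for the label. Endothelial gate genes were also higher in Clec4f-high cells (90.7 and 75.5 CPM) than in Clec4f- macrophages (13.8 and 11.8 CPM). The 10 genes summed to 21089 CPM (UMIs per 1000000 UMIs of the class) in PBS Clec4f-high cells and to 18117 CPM in anti–PD-1 Clec4f-high cells. They summed to 189.7 and 499.99 CPM in Clec4f- macrophages, to 79.6 and 315 CPM in monocytes, to 204 and 494 CPM in neutrophils, and to 112 and 344 CPM in T cells. These low levels were higher in the anti–PD-1 library in each of these classes. Cells with markers of more than 1 lineage, which were left out, had 3621 and 4341 CPM. Clec4f-high cells held 43.2% (*Spic*) to 59.6% (*Clec4f*) of each member's UMIs in the PBS library and 47.5% to 55.3% in the anti–PD-1 library, and cells with markers of more than 1 lineage held 31.1% to 44.7% and 37.7% to 44.9%.

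**Figure D2:**
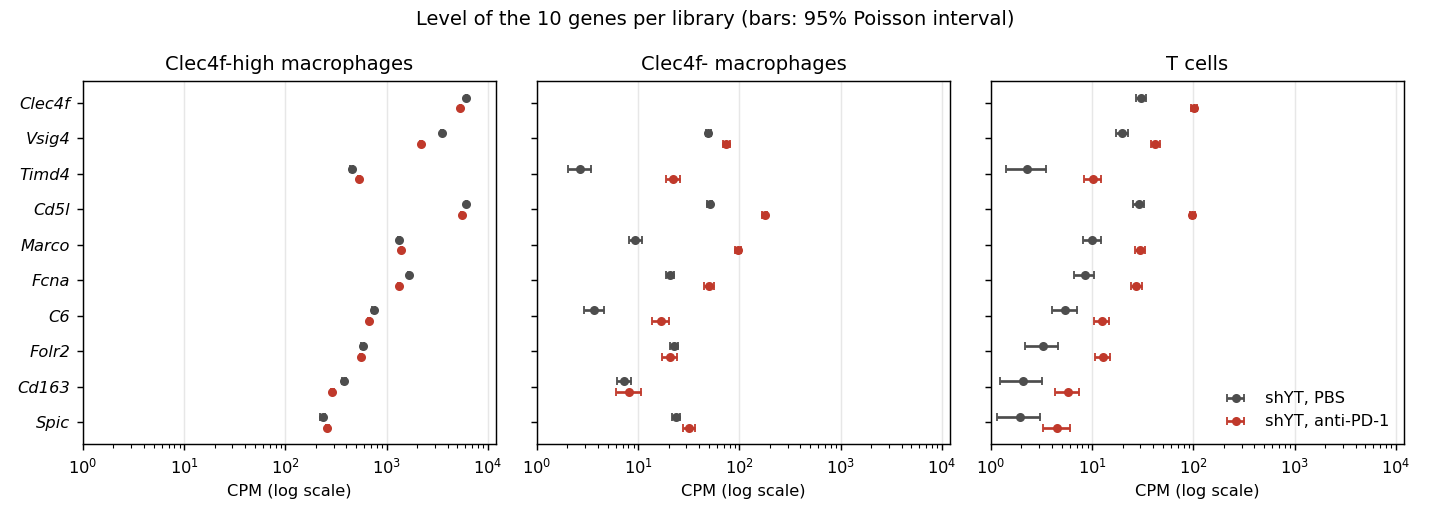
Level of each of the 10 genes (x axis, CPM on a log scale) in Clec4f-high macrophages, Clec4f- macrophages and T cells, PBS in grey and anti–PD-1 in red, bars giving the 95% Poisson interval. In Clec4f-high cells the libraries lie close together, whereas in T cells the anti–PD-1 points lie to the right for all 10 genes; *Clec4f* is at 0 in Clec4f- macrophages by definition and is not drawn there.

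Within Clec4f-high macrophages the members differed by less than 2-fold between the libraries, and *Vsig4* differed most. None of the 9 members other than the gate gene differed by 2-fold or more in either direction. Few genes did. Of the 11896 genes measured there, 1.87% were at least 2-fold higher and 0.479% at least 2-fold lower in the anti–PD-1 library. The lack of such members therefore does not set the list apart. The median log2 ratio of the 9 members (anti–PD-1 against PBS, with 5 CPM added to both) was −0.14, and that of all measured genes was −0.12. By the sign of the ratio 3 members were higher and 6 lower. The gate gene *Clec4f* stood at 6117 CPM (6049 to 6186) in PBS cells and at 5357 CPM (5309 to 5404) in anti–PD-1 cells, a log2 ratio of −0.19 that describes the gate, and of −0.23 within Y-linked cells.

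Among the receptors, *Vsig4* was lower and *Timd4* higher in the anti–PD-1 library by all UMIs of the cells. *Vsig4* stood at 3523 CPM (3471 to 3575) in PBS and 2184 CPM (2154 to 2215) in anti–PD-1 Clec4f-high cells. This was 1.61-fold lower, a log2 ratio of −0.69 (−0.72 to −0.66), the lowest of the members. The gene is X-linked. Within Y-linked cells the ratio was −0.64 (−0.69 to −0.58), and inside the PBS library cells with *Xist* and cells with Y-linked UMIs had 3434 and 3318 CPM. The median cell had 3284 and 2103 CPM, and the cell at the 10th percentile 1393 and 467 CPM. After thinning to 1000 UMIs, 88.9% (86.0 to 91.3) of PBS cells and 80.04% (77.4 to 82.5) of anti–PD-1 cells had a *Vsig4* UMI, against 2.04% and 4.37% of T cells. At 4000 UMIs the shares were 97.3% (95.5 to 98.5) and 96.5% (95.04 to 97.7), and the intervals overlap. *Timd4* stood at 450.2 CPM (432 to 469) and 536 CPM (521 to 551), giving a log2 ratio of 0.25 (0.18 to 0.32). At 4000 UMIs per cell it was found in 67.1% (62.8 to 71.1) of PBS cells and 78.1% (75.1 to 80.8) of anti–PD-1 cells, against 0.191% and 2.48% of T cells. At 1000 UMIs the shares were 33.9% (29.99 to 37.9) and 35.8% (32.8 to 38.8), and the intervals overlap. After thinning to 1000 UMIs the log2 ratio of *Timd4* was 0.19 (−0.03 to 0.41), so counting error alone left its direction open at that depth. Within Y-linked cells the *Timd4* ratio was 0.17 (0.02 to 0.32).

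The scavenger receptors *Marco* and *Cd163* went apart. *Marco* stood at 1313 CPM (1281 to 1345) and 1403 CPM (1379 to 1427), giving a log2 ratio of 0.10 (0.05 to 0.14), and at 0.26 within Y-linked cells. At 4000 UMIs it was found in 56.5% and 68.0% of cells, against 2.10% and 10.04% of T cells, so the background share was higher in the anti–PD-1 library too. At 1000 UMIs it was found in 42.4% (38.3 to 46.5) and 48.02% (44.9 to 51.2), and the intervals overlap. The log2 ratio of *Marco* at that depth was 0.12 (−0.01 to 0.26), an interval that included 0. Its ratio turned to −0.12 (−0.15 to −0.09) when cells with markers of several lineages were kept. *Cd163* stood at 378 CPM (362 to 396) and 291 CPM (281 to 303), giving a log2 ratio of −0.37 (−0.45 to −0.29). Within Y-linked cells this ratio was −0.89 (−1.03 to −0.75). PBS cells with Y-linked UMIs had 576 CPM and PBS cells with *Xist* had 288 CPM. *Cd163* was thus the member that differed most between these 2 groups of PBS cells. Its difference between libraries depended most on which PBS cells were used. Cells are not assigned to animals, so sex and animal cannot be told apart here. *Folr2* stood at 582 CPM (562 to 604) and 560.0 CPM (545 to 575), giving a log2 ratio of −0.06. The interval, −0.12 to 0.01, included 0, whereas within Y-linked cells the ratio was −0.18 (−0.31 to −0.05).

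The secreted members were slightly lower in the anti–PD-1 library. *Cd5l* stood at 6099 CPM (6031 to 6167) and 5525 CPM (5478 to 5574), giving a log2 ratio of −0.14 (−0.16 to −0.12), which was −0.05 (−0.09 to −0.01) within Y-linked cells. *Fcna* stood at 1645 CPM (1610 to 1681) and 1328 CPM (1305 to 1352), giving a log2 ratio of −0.31 (−0.35 to −0.27), which was −0.59 (−0.67 to −0.52) within Y-linked cells. *C6* stood at 747 CPM (724 to 771) and 672 CPM (655 to 689), giving a log2 ratio of −0.15 (−0.21 to −0.09), which was −0.34 (−0.45 to −0.23) within Y-linked cells. Relative to the shift of −0.12 that the median gene showed, *Cd5l* lay at −0.026 (−0.046 to −0.0051), *C6* at −0.035 (−0.093 to 0.023) and *Fcna* at −0.19 (−0.23 to −0.15). The transcription factor *Spic* stood at 233 CPM (220 to 247) and 260.2 CPM (250 to 271), giving a log2 ratio of 0.15 (0.05 to 0.25). Within Y-linked cells its interval was −0.10 to 0.31, and after thinning to 1000 UMIs the ratio was −0.14 (−0.43 to 0.15). Counting error alone thus left the direction of *Spic* open, and for every member the spread among animals is unknown.

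The values moved with the gate, less so in Clec4f+ cells than in all gated macrophages. In Clec4f+ macrophages the ratio of *Vsig4* was −0.60 (−0.62 to −0.57) and that of *Timd4* 0.37 (0.30 to 0.44), and the median of the 9 members was −0.03 against −0.10 for all 13367 genes measured. Again none of them differed by 2-fold. Few genes did, 2.01% being at least 2-fold higher and 0.307% at least 2-fold lower, so this does not set the members apart. In all gated macrophages, where no member was used for gating, each of the 10 members was higher in the anti–PD-1 library and 7 were at least 2-fold higher, against 2.38% of 14894 genes at least 2-fold higher and 0.477% at least 2-fold lower. There *Clec4f* went from 1029 to 2177 CPM, *Timd4* from 77.3 to 227 CPM, *Marco* from 241 to 634 CPM and *Vsig4* from 636 to 918 CPM. The log2 ratios ranged from 0.53 for *Vsig4* to 1.49 for *Timd4*, with a median of 1.05 against −0.07 for all genes. Within Y-linked cells of all gated macrophages only *Timd4* (1.11) and *Marco* (1.30) reached 2-fold, and *Cd163* was at 0.06 (−0.08 to 0.20). With multi-lineage cells kept only *Timd4* reached 2-fold, at 1.12. *Vsig4* had the lowest and *Timd4* the highest ratio in each of these 3 gates, though not within Y-linked cells, where *Cd163* was lowest and *Marco* highest. The share of Clec4f-high cells among these macrophages, 15.4% and 32.8%, moved with the pooled levels, and more such cells and more RNA per cell cannot be told apart in the pooled sum alone.

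**Figure D3:**
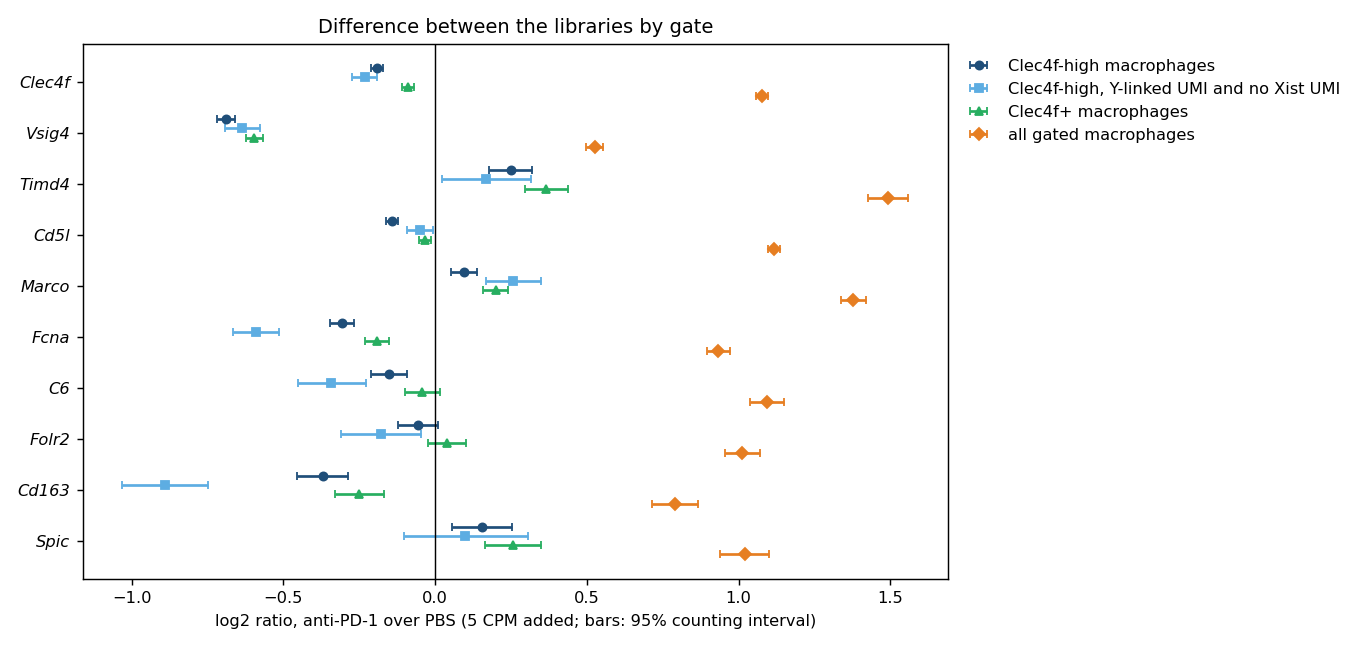
Log2 ratio of anti–PD-1 over PBS for each gene (x axis, 5 CPM added, bars giving the 95% counting interval) in Clec4f-high macrophages, in Clec4f-high cells that had Y-linked UMIs but lacked *Xist*, in Clec4f+ macrophages and in all gated macrophages. The 3 sets with a *Clec4f* gate lie between −0.89 (*Cd163*, Y-linked cells) and 0.37 (*Timd4*, Clec4f+ cells), whereas in all gated macrophages all 10 genes lie between 0.53 and 1.49.

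Of the gates that used none of the members, a broad and a narrow one gave different values. The broad gate, any 2 of the 12 partner genes, held 2533 and 2234 cells. Each of the 10 members was higher there in the anti–PD-1 library, from 0.33 for *Vsig4* and 0.62 for *Cd163* to 1.31 for *Timd4*. The median was 0.88, against −0.08 for all 14293 genes measured. Of the members 2 were at least 2-fold higher, and the share of all genes that were is not given here for this gate. The narrow gate took C1q-gated cells with at least 2 of *Clec1b*, *Cdh5*, *Pcolce2*, *Kcna2* and *Paqr9*, was chosen after the data had been seen, and held 531 PBS and 880 anti–PD-1 cells. There *Clec4f* itself, no longer the gate, stood at 5916 CPM (5848 to 5984) and 5275 CPM (5227 to 5323), giving a log2 ratio of −0.17 (−0.19 to −0.14). *Vsig4* had −0.65, *Timd4* 0.25, *Cd5l* −0.14, *Marco* 0.07, *Fcna* −0.30, *C6* −0.13, *Folr2* −0.04, *Cd163* −0.31 and *Spic* 0.17. Several of the gate's genes lead the ranking of Clec4f-high cells or resemble the members most, so the like values are no independent support, and the cells shared by both gates were not counted.

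In Clec4f- macrophages the members were low, and their proportions were compared with those in T cells, which should not express them. *Cd5l* was taken as the reference, and the source of the RNA was not tested. In T cells of the PBS library there were 68.3 (56.3 to 82.7) *Vsig4* UMIs and 6.72 (3.92 to 10.8) *Spic* UMIs per 100 *Cd5l* UMIs, and in Clec4f-high cells 57.8 and 3.83. PBS Clec4f- macrophages had 46.6 (41.9 to 51.9) *Spic*, 44.1 (39.5 to 49.2) *Folr2*, 96.8 (88.8 to 106) *Vsig4* and 40.5 (36.1 to 45.3) *Fcna* UMIs per 100 *Cd5l* UMIs, against 9.55 for *Folr2* and 26.97 for *Fcna* in Clec4f-high cells. *Cd163* was at 14.4 (12.1 to 17.0) against 6.20, while *Marco* at 18.5 (15.8 to 21.5) and *C6* at 7.28 lay below the 34.7 and 18.7 of T cells. *Spic*, *Folr2*, *Vsig4*, *Fcna* and *Cd163* were thus above the ratio of Clec4f-high cells, and *C6* and *Timd4*, the latter at 5.22 (3.92 to 6.84) against 7.38, were below it. In PBS T cells *Fcna* was at 29.1 (22.3 to 37.6) and *Timd4* at 7.84 (4.77 to 12.2), and both intervals overlap those of Clec4f- macrophages. *Marco* in Clec4f-high cells was at 21.5 (20.96 to 22.1), which also overlaps the interval of Clec4f- macrophages.

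In anti–PD-1 Clec4f- macrophages *Marco* and *Spic* were above the ratio to *Cd5l* of Clec4f-high cells and T cells. *Marco* stood at 96.8 CPM (89.5 to 105) against 9.38 CPM (8.12 to 10.8) in the PBS library, a log2 ratio of 2.82 (2.65 to 2.99), and at 54.2 (49.2 to 59.7) per 100 *Cd5l* UMIs against 25.4 in Clec4f-high cells and 30.4 (26.6 to 34.7) in T cells. *Spic* was at 17.8 (15.3 to 20.7) against 4.71, whereas *Folr2* at 11.6, *Vsig4* at 41.7 and *Fcna* at 28.2 lay close to the ratios of anti–PD-1 T cells, which were 13.01, 43.0 and 28.0. *Cd5l* went from 50.8 to 179 CPM in Clec4f- macrophages, a log2 ratio of 1.72, while in T cells of the same libraries it went from 28.9 to 97.8 CPM, a ratio of 1.60. The Clec4f- cells of the 2 libraries differed in other ways too. Their median UMIs per cell were 7330 and 4993. *S100a8* and *S100a9* summed to 199 and 813 CPM, the 5 monocyte genes to 719 and 1433 CPM, and *Xist* was at 237 and 0 CPM. Values within Y-linked cells are not given for this class, and the part of these differences was not tested. In T cells *Vsig4* went from 68.3 to 43.0 (38.3 to 48.3) UMIs per 100 *Cd5l* UMIs, and in neutrophils it was 54.7 (39.0 to 76.1) and 48.5 (42.5 to 55.2), where the intervals overlap.

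**Figure D4:**
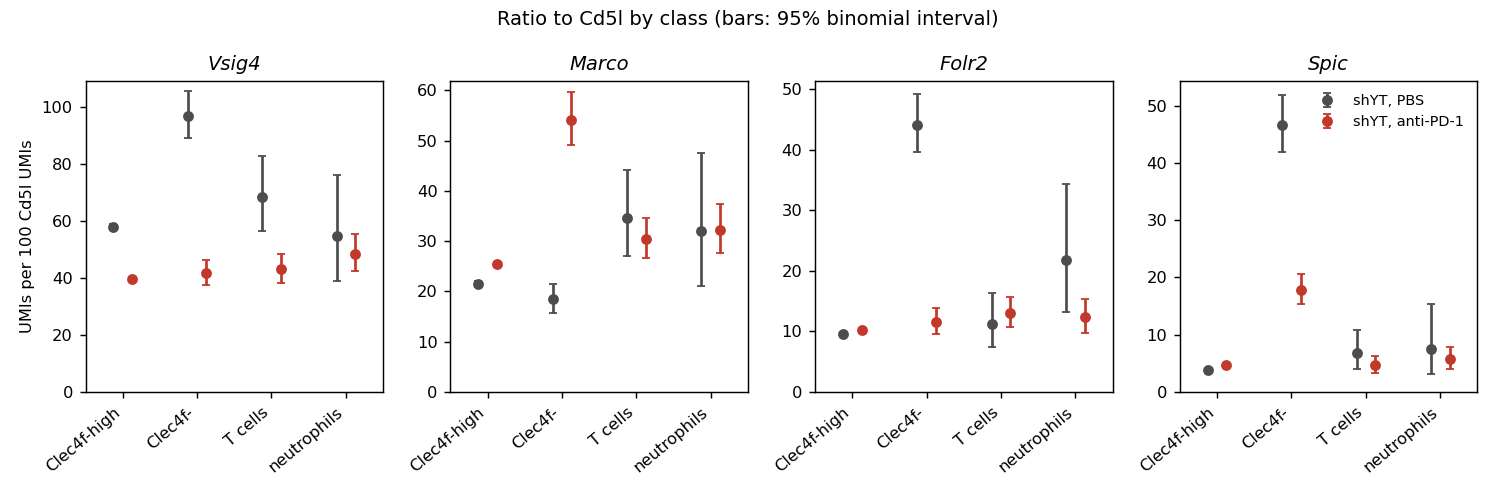
UMIs of *Vsig4*, *Marco*, *Folr2* and *Spic* per 100 *Cd5l* UMIs (y axis) in 4 classes, PBS in grey and anti–PD-1 in red, bars giving the 95% binomial interval. Clec4f- macrophages stand above T cells and Clec4f-high cells for *Vsig4*, *Folr2* and *Spic* in PBS and for *Marco* and *Spic* with anti–PD-1, while PBS neutrophils have wide intervals and lie above Clec4f-high cells for *Folr2*.

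Single Clec4f-high cells carried most of the members, and few carried all. At 4000 UMIs per cell (513 PBS and 834 anti–PD-1 cells, with 68 and 157 shallower cells left out) the median cell had UMIs of 8 of the 10 members in both libraries, 63.0% and 65.6% of cells had at least 8, and 58 (11.3%) and 92 (11.03%) had all 10. A UMI can also be background: of T cells at this depth 7.07% and 26.4% had *Clec4f*, 6.31% and 25.4% *Cd5l*, and 4.97% and 12.8% *Vsig4*. The members that most often were missing were *Cd163*, found in 48.7% (44.3 to 53.2) and 43.0% (39.7 to 46.5) of cells, and *Spic*, found in 47.6% and 51.0%. By all UMIs of the cells, *Marco* varied widely in both libraries. Its median cell had 363 CPM in the PBS and 602 CPM in the anti–PD-1 library, and the 90th percentile was 3954 and 3829 CPM. For *Cd163* the median cell had 114 and 53.4 CPM. Median cells of these 2 genes thus lay further apart than their pooled levels. Cells with a *Timd4* UMI had more of most other members, with *Marco* at 1553 CPM against 538 CPM in PBS cells without it, and at 1487 against 660 CPM in anti–PD-1 cells. *Fcna* was at 2000 against 966 CPM and 1471 against 930.3 CPM in the same split. *Spic* was alike in cells with and without *Timd4*, at 230.4 and 225 CPM in PBS cells and 250.0 and 249 CPM in anti–PD-1 cells. These splits are descriptions of cells within a library, which share animals and depth.

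The Kupffer partner genes, 12 genes known from the same cells, mostly depended on the gate as the members did. In Clec4f+ macrophages 1 was past 2-fold lower, as were 0.307% of all genes. In all gated macrophages 11 were higher, 4 of them past 2-fold, with a median of 0.88, and 1 was past 2-fold lower, at −1.46. Of all genes there, 2.38% were at least 2-fold higher and 0.477% at least 2-fold lower. In Clec4f-high cells 3 were higher and 9 lower under anti–PD-1, the median being −0.11, and none passed 2-fold, as few genes did. The exceptions in size were *Slc40a1*, the iron exporter ferroportin, at 2977 and 1755 CPM (log2 ratio −0.76, −0.79 to −0.73), and *Id3*, a helix-loop-helix regulator needed by Kupffer cells, at 1164 and 2210 CPM (0.92, 0.88 to 0.96). *Nr1h3* stood at 459 and 523 CPM (0.19, 0.12 to 0.26). Within Y-linked cells *Slc40a1* was at −0.76 and *Id3* at 1.12. Of 12 macrophage transcription factors 5 were higher and 7 lower, with a median of −0.11 and a highest ratio of 0.64 for *Id1*, while *Spi1* (PU.1) was at 0.03 (−0.04 to 0.10). Among 14 ligands and receptors of the niche, 7 reached the count minimum in these cells, with *Abca1*, an LXR target, lowest at −0.83 and *Csf1* highest at 0.52 from 12 and 51 UMIs.

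Among the other lists, the lipid-associated, interferon-γ and stress genes had medians far from 0, and not in Clec4f-high cells alone. In Clec4f- macrophages the medians were −0.90, 1.58 and 1.56, and in monocytes −1.38, 1.62 and 0.96. In T cells they were −0.37, 0.20 and 0.71, with 8 of the 10 lipid-associated genes lower. That list summed to 4888 and 2770 CPM in T cells and to 50995 and 28586 CPM in Clec4f-high cells. Whether RNA from other cells has a part in this was not tested. Of 10 lipid-associated macrophage genes all were lower in anti–PD-1 Clec4f-high cells, with a median of −0.82 and 3 past 2-fold, and *Trem2* went from 375 to 97.8 CPM and *Gpnmb* from 64.9 to 19.99 CPM. All 19 measured genes of the interferon-γ response were higher, 17 of them past 2-fold, with *Cxcl10* at 15.4 and 304 CPM, *Iigp1* at 47.7 and 328 CPM and *Cd274* (PD-L1) at 56.0 and 212 CPM. All 14 immediate-early and heat shock genes were higher too, 10 past 2-fold, including *Atf3* at 140.3 and 649 CPM and *Hspa1a* at 447 and 1392 CPM. Tissue dissociation is known to induce such genes, and their part in the members' differences was not tested. Of 11 complement genes 2 were higher (*C3* at 1.23 and *Cfb* at 1.22) and 9 lower, with *C1qa*, *C1qb* and *C1qc* between −0.14 and −0.03. Pan-macrophage genes had a median of −0.17, with *Cd14* at 1.55 and *Lyz2* at −0.71, and of 8 monocyte genes 4 were higher (*Ly6c2* at 1.03) and 4 lower (*Chil3* at −1.34). Markers of other lineages in Clec4f-high cells differed in both directions. *S100a8* and *S100a9* of neutrophils summed to 80.2 and 454 CPM, the 5 monocyte genes of the gate to 200.1 and 552 CPM, and the 5 T cell genes to 18.5 and 47.8 CPM. The 3 other neutrophil genes summed to 91.9 and 107.7 CPM, endothelial genes to 90.7 and 75.5 CPM, fibroblast genes to 39.03 and 24.98 CPM, and epithelial genes to 27.6 and 16.6 CPM. Their part in the result was not tested.

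**Figure D5:**
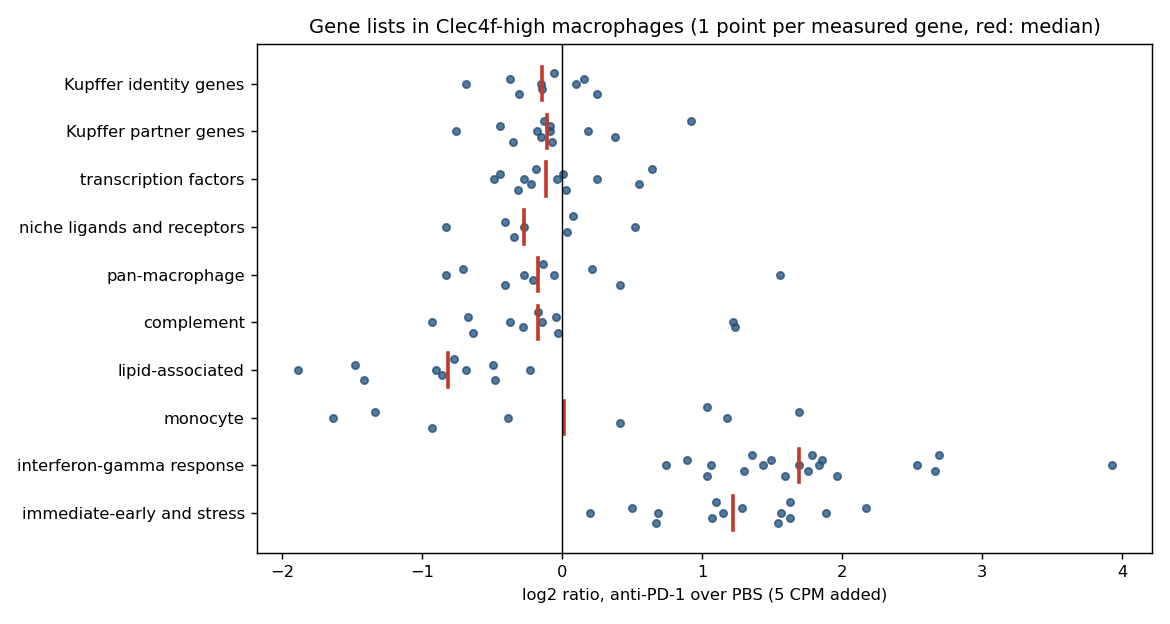
Log2 ratio of anti–PD-1 over PBS in Clec4f-high macrophages for the measured genes of each list (x axis, 1 point per gene, the red line being the median of the list). Kupffer identity genes, without *Clec4f*, and their partner genes center at −0.14 and −0.11, lipid-associated genes at −0.82, and the interferon-γ and stress lists at 1.69 and 1.22.

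The genes whose levels followed the members most closely over cell classes were *Adamdec1*, *Paqr9*, *Cd300e*, *Kcnj16*, *Kcna2*, *Smc1b*, *Nr1h3* and *Rims3*. Likeness was Pearson's r between log2(CPM + 5) of a gene and the mean of the members over 24 points, 12 classes in each library, among 13840 genes with at least 200 UMIs, and it ran from 0.93 for *Adamdec1* to 0.89 for *Rims3*. These points share libraries and may share RNA from other cells, so r is a description. In Clec4f-high cells *Adamdec1* stood at 111 and 140.5 CPM (log2 ratio 0.33, 0.19 to 0.47) and *Cd300e* at 97.2 and 129 CPM (0.39, 0.25 to 0.54), whereas *Kcnj16* stood at 48.1 and 32.9 CPM (−0.49, −0.71 to −0.26).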

How the data were processed

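The authors deposited UMI counts, not normalized, for every gene and barcode, made with Singleron software (its version is not given in the sources used here) against mm10 by demultiplexing, alignment and counting. The submitters' processing notes also name Seurat 4.3. Libraries came from the GEXSCOPE kit and held 19397 PBS and 19451 anti–PD-1 barcodes with 121713441 and 100807037 UMIs. Strand handling and the gene annotation were not given in the sources used here. Gene coordinates were taken from GENCODE vM21, and promoters from RefSeq.

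Following the study's methods, a cell was kept if it had 500 to 5000 genes and no more than 10% of its UMIs from mitochondrial genes. The study's SCTransform and integration steps were left out, and cells were classed by marker gates on UMIs. Macrophages had at least 5 UMIs of *C1qa*, *C1qb* and *C1qc*, and Clec4f+ macrophages at least 1 *Clec4f* UMI. The Clec4f-high gate (at least 5 *Clec4f* and 10 C1q UMIs) and the gate on 5 partner genes were chosen after the data had been seen. A cell passing gates of more than 1 lineage (2692 and 4146 cells) was left out in place of a doublet caller, so doublets of like cells remain.

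With 1 library per group there was no test. Summed UMIs of each class in a library were scaled to CPM, with exact Poisson intervals. Each log2 ratio sets anti–PD-1 against PBS with 5 CPM added to both, with an exact conditional binomial interval, and shares carry Clopper-Pearson intervals. These 95% intervals describe counting error alone. A gene counted as measured in a class with at least 20 UMIs over both libraries. The ratio and interval code was tested on simulated counts. Python 3.11.15, NumPy 2.4.6, SciPy 1.17.1 and pandas 2.3.3 were used. Named genes are the 10 members, the genes of each list with the extreme ratios in Clec4f+ macrophages or that define it, other extremes that were chosen after their values had been seen, and the 8 genes most like the members. Members and lists were chosen with earlier results of these data known. The values of 1 gene of the transcription factor list are not reported here.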

Additional observations from a re-analysis of the deposited data

Results flagged for a closer look

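Among the members, 4 had ratios of opposite sign in Clec4f-high and Clec4f- macrophages, with counting intervals apart from 0 in both. The share of all measured genes with this pattern is not given here, so the count does not set the members apart. The log2 ratio of *Vsig4* was −0.69 in Clec4f-high and 0.55 in Clec4f- macrophages, that of *Cd5l* −0.14 and 1.72, that of *Fcna* −0.31 and 1.12, and that of *C6* −0.15 and 1.31. Whether the classes differed was not tested, as there was 1 library per group. In T cells of the same libraries the ratios of these genes were 0.93 for *Vsig4*, 1.60 for *Cd5l*, 1.27 for *Fcna* and 0.75 for *C6*.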

How the results depend on the processing

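No paired analysis was possible because each group has 1 library and the labels give no replicate numbers, so no library could be left out either. In Clec4f+ macrophages 115 of 135 member ratios kept their sign over 15 alternatives, in Clec4f-high cells 85 of 90, and in all gated macrophages 100 of 100. The C1q thresholds of 3 and 10 cannot alter the Clec4f-high gate, so their values there repeat the reported ones. Adding 1 CPM in place of 5 cannot change the sign of any ratio. These values are counted all the same, so the counts overstate how many alternatives could have differed. In Clec4f-high cells the exceptions were *Folr2* (0.06 with median-ratio scaling, which shifts every gene alike, 0.14 after thinning to 1000 UMIs and 0.04 as a mean over cells), *Spic* after thinning and *Marco* with multi-lineage cells kept. The median in Clec4f+ macrophages, −0.033, was −0.076 and 0.022 with C1q thresholds of 3 and 10, −0.26 with multi-lineage cells kept, −0.21 within Y-linked cells, 0.062 with median-ratio scaling, −0.074 after thinning, −0.11 as a mean over cells, −0.29 with at least 2 *Clec4f* UMIs, −0.069 with a gate on the other members, 0.87 with a gate of any 2 partner genes, and, added after the data had been seen, −0.14 in Clec4f-high cells and −0.13 with the narrower partner gate. The broad partner gate held 2533 and 2234 cells, which is most of the macrophages, and its median over 10 members, 0.88, was −0.14 with the narrower gate. The median in all gated macrophages, 1.05, was 0.99 and 1.13 with C1q thresholds of 3 and 10, 0.73 with multi-lineage cells kept, 0.66 within Y-linked cells, 1.12 with median-ratio scaling, 0.99 after thinning and 0.99 as a mean over cells. The median in Clec4f-high cells was −0.18 within Y-linked cells and −0.026 with median-ratio scaling. The share of Clec4f+ cells was 34.7 percentage points higher in the anti–PD-1 library, and 30.9 and 39.5 points with C1q thresholds of 3 and 10, 29.4 with multi-lineage cells kept, 27.1 with at least 2 *Clec4f* UMIs, 26.0 after thinning, 17.3 in the Clec4f-high gate and 15.0 in the narrower partner gate. Causes were not tested. At 4000 UMIs per cell *Cd163* and *Spic* had no UMI in many Clec4f-high cells, which limits what their shares can show.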

Other observations

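*Cxcl9*, a chemokine that attracts T cells, was spread unevenly over Clec4f-high cells when these were divided by a member UMI at 4000 UMIs per cell. In the anti–PD-1 library it stood at 285 CPM in cells with a *Marco* UMI and 134 CPM in cells without (log2 ratio 1.06, 0.81 to 1.32), and at 90.5 CPM in cells with a *Cd163* UMI and 347 CPM in cells without (−1.88, −2.15 to −1.62). In the PBS library it was lower in cells with *Marco*, at 28.4 against 105 CPM, and with *Cd163*, at 31.0 against 91.3 CPM. *Trem2*, of the lipid-associated genes, was lower in cells with *Marco* in both libraries, at 309 against 453 CPM and at 83.3 against 123 CPM. *Id3* was lower in cells with *Marco* too, at 1072 against 1321 CPM and at 2171 against 2550 CPM. These divisions were looked at after the values had been seen, carry no test, and describe cells of the same libraries.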
